A study of Mus musculus with 16 samples.

Results

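Circadian clock genes were examined in spinal cord RNA of hPFN1 G118V and hPFN1 WT transgenic mice. The 10 genes were Per1, Per2, Per3, Dbp, Tef, Hlf, Nr1d1, Nr1d2, Arntl and Npas2. They were picked by symbol, and all 10 were found among the 18167 genes of the expression table. Of 16 male mice on a C57BL/6N background, 3 were WY (wild-type young, 50 days old) and 3 were MY (mutant young, 50 days old). A further 5 were WO (wild-type old, 190 to 294 days old) and 5 were MO (mutant old, 175 to 245 days old, at end-stage of disease). Every mouse carried a human PFN1 transgene under a mouse prion promoter, with the G118V substitution in the mutant line (838Kiaei/J) and without it in the wild-type profilin line (850Kiaei/J). Each genotype was thus 1 transgenic line, and non-transgenic mice were not analysed here.

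The mammalian clock is a loop of transcription and translation that runs in most tissues, spinal cord included. ARNTL (BMAL1) pairs with CLOCK or NPAS2 and drives genes that hold an E-box, among them the Period, Cryptochrome and REV-ERB genes and Dbp. PER and CRY proteins block that pair, REV-ERB proteins (Nr1d1, Nr1d2) repress Arntl and Npas2 through RORE elements, and DBP, TEF and HLF act on D-boxes. Arntl transcript therefore peaks at about the opposite time of day to Dbp, Nr1d1 and Per3 in most tissues. The mice were kept under a daily light and dark cycle, and the time of day at which each cord was taken is not given in the sources used here.

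Short stretches of promoter sequence that hold these elements were searched for in RefSeq promoters of build GRCm38.p6, from 250 bases before to 50 bases after each start. Promoters were matched for 9 of the 10 genes (12 promoters), Per2 being the exception. The letters searched on both strands were CACGTG for the E-box, TTATGTAA or TTATGCAA for the D-box, TAGGTCA or TGGGTCA for the RORE, and TGACGTCA for the cAMP response element (CRE). The matches are shown because E-boxes, D-boxes and ROREs are the elements through which the genes are known to act on each other, and the CRE is the element through which cAMP acts. Capitals mark the match, and each run is read 5′ to 3′ along the strand of the gene.

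Per1 E-box, chr11:69098772-69098799, 166 bases before the first RefSeq start: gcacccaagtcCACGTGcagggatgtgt
Per1 D-box, chr11:69098914-69098943, 24 bases before the same start: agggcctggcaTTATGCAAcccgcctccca
Per3 D-box, chr4:151044852-151044881, 205 bases before the start: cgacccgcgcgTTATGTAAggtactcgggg
Per3 D-box, chr4:151044805-151044834, 158 bases before the start: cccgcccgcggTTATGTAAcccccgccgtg
Tef E-box at the first start, chr15:81802535-81802562: tgctgtggctcCACGTGctgcagctggc
Tef E-box at a second start, chr15:81811265-81811292, 138 bases before it: acctggcccagCACGTGtctacatcgtt
Hlf CRE, chr11:90390918-90390937, 9 bases before the start: ggtgcgggcccTGACGTCAc
Arntl RORE, chr7:113207530-113207558, 31 bases after the start: aaggcagaaagTAGGTCAgggacggaggt

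An E-box was held by 7.15% of all 32851 promoters of that length, and by those of Per1 and Tef among the clock genes. D-box letters were held by 1.66% of promoters, a RORE by 6.45% and a CRE by 1.79%. No match says only that these letters are not in the window. Both Per1 windows lie within the GENCODE gene span, which opens further upstream than the RefSeq start. The first Tef window and the Arntl window overlapped annotated exons, and the others did not. In the GENCODE annotation of GRCm38, Per1 lies at chr11:69095217-69109960, Per3 at chr4:151003652-151044665 and Dbp at chr7:45705088-45710203. Arntl lies at chr7:113207465-113314126, Npas2 at chr1:39193731-39363236, Nr1d1 at chr11:98767932-98775333 and Nr1d2 at chr14:18204054-18239127. Dbp shares 737 bases with Sphk2 and Nr1d1 shares 1075 bases with Thra, each on the opposite strand. Whether the gene summaries used strand is not given in the sources used here, so reads in those stretches may belong to either gene. Per3 lies within Camta1 on the same strand.

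The deposited values are log2(1 + FPKM) after an adjustment for library batch by the authors, and 1 unit is a doubling of 1 + FPKM. All young mice, WO1 to WO3 and MO1 to MO3 were in batch 1, and WO4, WO5, MO4 and MO5 were in batch 2. Library MO5 went against its sex label: Xist stood at 3.21 there and at no more than 0.37 elsewhere, and Ddx3y at 1.95 against at least 4.06. Counts of genes called, SDs and correlations are therefore also given without it. Markers of the cord (7) were present, with a mean of 3.52 to 3.67 in MO mice. Elsewhere it was 3.48 in WY1 and 3.95 to 4.06 in the other mice. WY1 thus stood apart: Slc6a5 was 4.02 there and 5.36 to 6.02 in the rest of the mice that were not MO. Of the 7 markers, 4 (Chat, Mnx1, Slc5a7 and Slc6a5) passed as lower in MO than in both MY and WO. Hoxc10 passed as lower than in MY only, Hoxc8 as lower than in WO only and Hoxd10 as higher than in WO, where 12.5% of all genes passed as lower than in MY and 12.9% as lower than in WO. Microglial markers (4 of the 5 listed were used) had a geometric mean of 3.78 to 4.55 in MO mice and 1.96 to 2.44 in the other groups, and 60 astrocyte markers 3.44 to 3.58 against 2.97 to 3.33. Motor neuron markers (5) stood at 1.27 to 1.53 in MO, 1.52 in WY1 and 1.64 to 1.89 elsewhere. Oligodendrocyte markers (35) stood at 4.25 to 4.82 in MO, 4.54 to 4.77 in WO and 5.00 to 5.18 in young mice. Sensory neuron markers (4), taken as a plain mean like those of the cord, stood at 2.95 to 3.35 in MO and 2.76 to 2.98 elsewhere. Of these 4 only Calca passed, by 1.10 over MY and 1.38 over WO, where 13.1% and 15% of all genes passed as higher. Prph differed by -0.14 and -0.096, and Scn10a and Trpv1 stood near 0 in every mouse. In bulk cord, fewer cells of a type and less RNA per cell cannot be told apart, and the part of these cell types in the clock gene values was not tested.

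On this scale, which is per transcript length, the 10 genes spanned the middle and upper part of the table. Mean levels over 16 mice were 5.91 for Tef, 5.21 for Nr1d2, 5.00 for Nr1d1 and 4.09 for Dbp. Per1 (3.53), Hlf (3.48), Per3 (3.15), Arntl (2.87), Per2 (2.36) and Npas2 (1.91) followed. Tef was thus higher than 92.1% of all genes and Npas2 than 36.9%. The ranges of most neighbours in this order overlapped, for example Nr1d2 and Nr1d1 (5.06 to 5.35 and 4.63 to 5.17) and Per1 and Hlf (3.20 to 4.26 and 3.21 to 3.62). Those of Tef and Nr1d2, and of Arntl and Per2, did not. Within each mouse Nr1d2 stood above Nr1d1, while the order of Per1 and Hlf varied between mice.

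**Figure D1:**
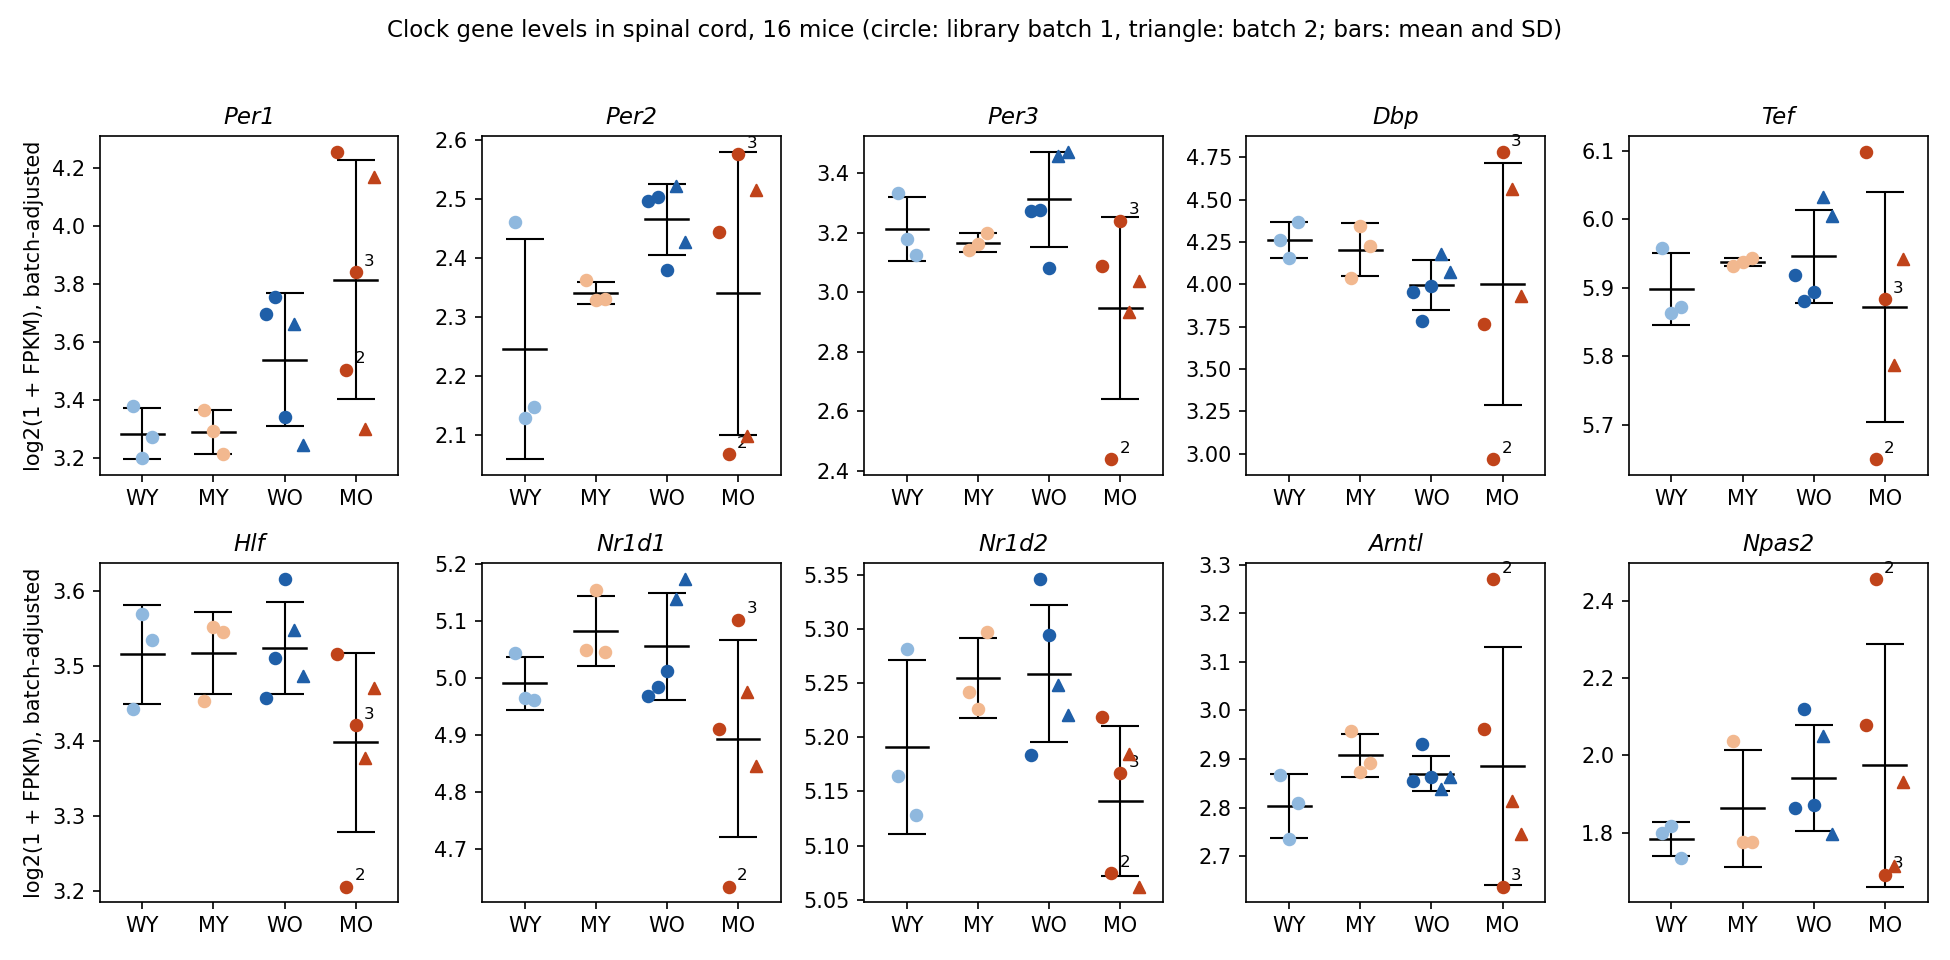
Level of each clock gene in each mouse, as log2(1 + FPKM) after batch adjustment (y axis), by group (x axis). Circles are library batch 1, triangles batch 2, black bars the group mean and SD, and the digits 2 and 3 mark MO2 and MO3. In 6 panels the lowest point of all 16 is MO2, and in those of Arntl and Npas2 MO2 is the highest.

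The first question was whether the clock genes differed between presymptomatic MY and end-stage MO mice. MO mice were also older, so age and disease stage cannot be told apart in this comparison. None of the 10 passed an FDR of 0.05 in limma (Benjamini-Hochberg over all genes), while 25.6% of all genes did. None passed with a fold change of at least 1.5 either (4.9% of all genes). At an unadjusted P below 0.05 there were 2 (36.7% of all genes), Per1 and Nr1d2. The median difference of the 10 was -0.09 on the log2 scale, against 0.0047 over all genes, with 2 genes positive and 8 negative.

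The second question was whether end-stage mutants differed from old wild-type profilin mice. Again none of the 10 passed, against 27.9% of all genes (4.6% with the fold threshold). Unadjusted P was below 0.05 for 2, Per3 and Nr1d2 (38.5% of all genes). The 2 groups overlapped for all 10, while for 19.9% of all genes they did not. The median difference was -0.10, with 4 genes positive and 6 negative. MO mice serve in both comparisons, so the results are not independent. Without MO5, the count of genes called stayed at 0 in both. Between WO and WY, which differ by age, and between MY and WY, which differ by transgenic line, limma also called 0 of 10. The shares of all genes called there were 1.12% and 0.0055% (0.253% and 0.0055% with the fold threshold). Unadjusted P was below 0.05 for 2 (Per2, Dbp) and 0 of the 10, against 13.5% and 7.16% of all genes. Without WY1, 0 of the 10 were called in either, beside 0.22% and 0.0275% of all genes.

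**Figure D2:**
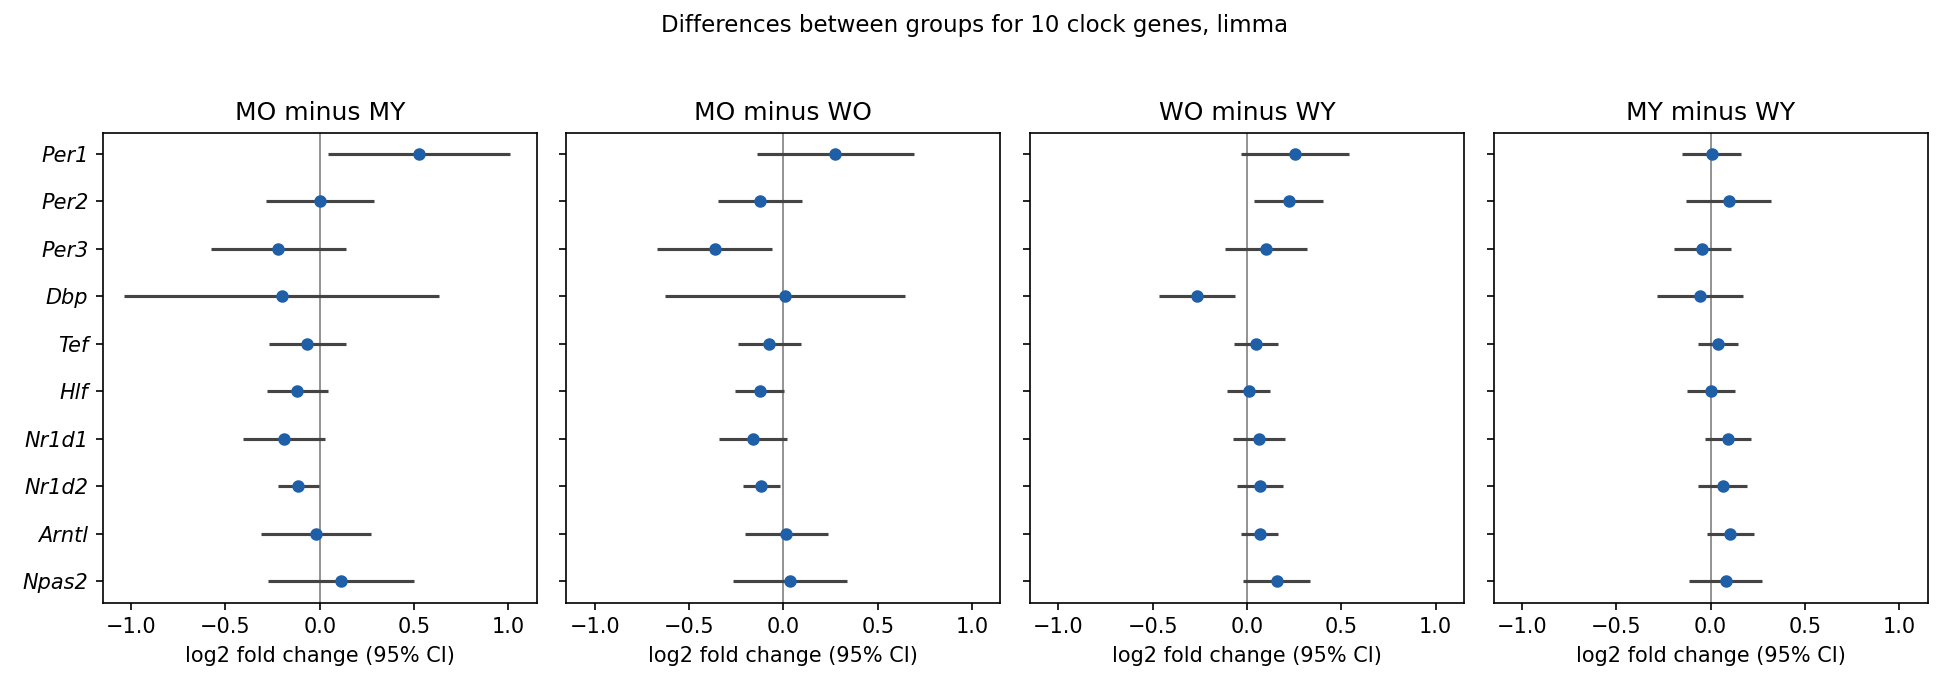
Difference between groups for each clock gene (log2 fold change, x axis), with its 95% confidence interval from limma as a line, in 4 comparisons. Dbp has the widest interval in both panels with MO mice, -0.63 to 0.64 against WO. Intervals that miss 0 belong to Per1 and Nr1d2 (MO minus MY), Per3 and Nr1d2 (MO minus WO) and Per2 and Dbp (WO minus WY), before adjustment.

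The Period genes code for the proteins that close the loop. Per1, a Period gene also induced by light, cAMP and glucocorticoids, stood at 3.38, 3.20 and 3.27 in WY mice and 3.36, 3.29 and 3.21 in MY mice. In WO mice it was 3.69, 3.75, 3.34, 3.66 and 3.24, and in MO mice 4.26, 3.50, 3.84, 3.30 and 4.17. The 6 young mice lay close together, and both old groups were wider, with MO1 and MO5 above every other mouse. MO exceeded MY by 0.52 ± 0.21 (SE), a 1.44-fold difference, with an adjusted p of 0.109 in limma. MO and WO differed by 0.28 ± 0.19 (adjusted p = 0.317, limma), close to the same in either batch (0.27 with 3 mice a group in batch 1, 0.28 with 2 in batch 2). Without MO4, the lowest MO mouse, the excess over MY was 0.65 and passed (limma adjusted p = 0.0277). Without MO1 it was 0.41 and without MO5 0.44, with no member below an unadjusted P of 0.05 in the latter. The difference from WO was 0.17 without MO1.

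Per3 was the member with the lowest limma adjusted p against WO. Its levels were 3.33, 3.18 and 3.13 in WY, 3.14, 3.16 and 3.20 in MY, 3.27, 3.28, 3.08, 3.46 and 3.47 in WO, and 3.09, 2.44, 3.24, 2.93 and 3.04 in MO. Only MO2 stood clear of the rest on the low side, and the groups overlapped. MO was 0.37 ± 0.14 below WO, a 1.29-fold difference (limma adjusted p = 0.0729). The difference was -0.29 within batch 1 and -0.48 within batch 2. It passed once the most Per3-rich MO mouse, MO3, was left out (-0.44, limma adjusted p = 0.0432), and was -0.24 without MO2 (limma adjusted p = 0.0871).

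Per2 ranged from 2.07 to 2.58 over all mice, and MO mice held both ends, MO2 the lowest and MO3 the highest. WO lay 0.22 ± 0.080 above WY (limma adjusted p = 0.264), and MO differed from WO by -0.13 ± 0.10 (limma adjusted p = 0.405), or by -0.057 without MO2 and -0.065 without MO4.

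Dbp, a D-box activator and one of the steepest daily cyclers in most tissues, showed the widest spread of the 10. It was 4.26, 4.16 and 4.37 in WY mice, 4.04, 4.35 and 4.23 in MY mice, and 3.95, 3.78, 3.99, 4.18 and 4.07 in WO mice. In MO mice it was 3.77, 2.97, 4.78, 4.56 and 3.93. MO mice thus held the lowest value (MO2) and the 2 highest (MO3, MO4) of the 16, while the MO mean of 4.00 ± 0.72 (SD, n = 5) equalled the WO mean of 3.99 ± 0.15 to within 0.0074. The 95% interval of that difference, -0.63 to 0.64, leaves room for a 1.5-fold change either way. WO lay 0.27 ± 0.089 below WY (limma adjusted p = 0.23), with 1 of 5 WO mice inside the WY range.

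Tef and Hlf, the other PAR bZIP factors, varied less. Tef lay between 5.65 (MO2) and 6.10 (MO1), and Hlf between 3.21 (MO2) and 3.62 (WO3). Hlf in MO was 0.13 ± 0.058 below WO (limma adjusted p = 0.143), and Tef 0.07 ± 0.075 below (limma adjusted p = 0.529). Without MO2 these differences were -0.077 and -0.018.

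The REV-ERB repressors had their lowest group mean in MO mice. Nr1d1 was 5.04, 4.97 and 4.96 in WY, 5.05, 5.15 and 5.05 in MY, 4.97, 4.98, 5.01, 5.14 and 5.17 in WO, and 4.91, 4.63, 5.10, 4.98 and 4.85 in MO. Nr1d2 was 5.16, 5.28 and 5.13 in WY, 5.24, 5.23 and 5.30 in MY, 5.18, 5.35, 5.29, 5.25 and 5.22 in WO, and 5.22, 5.07, 5.17, 5.18 and 5.06 in MO. All 5 MO mice lay below all 3 MY mice in Nr1d2, the only one of the 10 where these groups did not overlap, as they did not for 31.6% of all genes. That difference was -0.11 ± 0.048 (limma adjusted p = 0.128), and -0.12 ± 0.045 against WO (limma adjusted p = 0.0768), where the groups overlapped. Nr1d1 was -0.16 ± 0.082 from WO (limma adjusted p = 0.173), and -0.097 without MO2.

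The test of whether age acted differently in the 2 genotypes gave -0.18 ± 0.071 for Nr1d2 (limma adjusted p = 0.0934) and -0.25 ± 0.12 for Nr1d1 (limma adjusted p = 0.152). These 2 were the only members below an unadjusted P of 0.05 there, and none of the 10 passed, beside 17.7% of all genes (5.61% with the fold threshold, 31.1% below unadjusted 0.05). Left without WY2, Nr1d2 passed at -0.23 (limma adjusted p = 0.0362). Left without WY1, none of the 10 passed, beside 12.9% of all genes. Against WO, Nr1d2 passed without MO1, at the threshold itself (-0.14, limma adjusted p = 0.05).

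Neither activator, Arntl or Npas2, passed in any comparison. Arntl was 2.87, 2.73 and 2.81 in WY, 2.96, 2.87 and 2.89 in MY, 2.85, 2.93, 2.86, 2.84 and 2.86 in WO, and 2.96, 3.27, 2.64, 2.81 and 2.75 in MO. Its means ran from 2.80 (WY) over 2.87 (WO) and 2.89 (MO) to 2.91 (MY), and neighbours in that order differed by less than the SD of the wider group. MY mice did not overlap WY mice in Arntl or Nr1d1 (13.7% of all genes did not), with differences of 0.10 ± 0.051 and 0.09 ± 0.050 (limma adjusted p = 0.711 and 0.718). MO and WO differed by 0.02 in Arntl, with a 95% interval of -0.21 to 0.24. Npas2 was 1.80, 1.82 and 1.73 in WY, 2.04, 1.78 and 1.78 in MY, 1.86, 2.12, 1.87, 2.05 and 1.80 in WO, and 2.08, 2.46, 1.69, 1.71 and 1.93 in MO. Its means were 1.78 in WY, 1.86 in MY, 1.94 in WO and 1.97 in MO, with WO 0.16 ± 0.078 above WY (limma adjusted p = 0.441). MO2 was the highest of the 16 in both activators and MO3 the lowest in both.

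The spread between mice was compared as well. The SD was larger in MO than in WO mice for 10 of 10 members, against 60.6% of the 13530 genes with a mean level of at least 1. The median SD of the members was 0.243 in MO and 0.0815 in WO, and 0.0734 and 0.0496 in WY and MY. The median ratio of MO to WO SD was 2.12 for the members and 1.16 for those 13530 genes. Ratios were highest for Arntl (0.245 against 0.0359), Dbp (0.718 against 0.146) and Per2 (0.240 against 0.0600), and lowest for Nr1d2 (0.0693 against 0.0634). Dbp varied more among MO mice than 99.4% of genes, and Per1 more than 98.1%. Part of this was MO2: without it, 8 of 10 members were wider in MO (Per3 and Hlf were not), with a median ratio of 1.61 and a median SD of 0.133, against 57.4% of genes and a ratio of 1.12. Without MO2 the SD in MO was 0.136 for Arntl, 0.489 for Dbp and 0.214 for Per2. In batch 1 alone it was 9 of 10, all but Nr1d2, with a ratio of 3.82. Without MO5 it was 9 of 10. This comparison of SDs is a description and carries no test, and ages of MO mice also ran over a wider set of values than those of WO mice within batch 1.

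**Figure D3:**
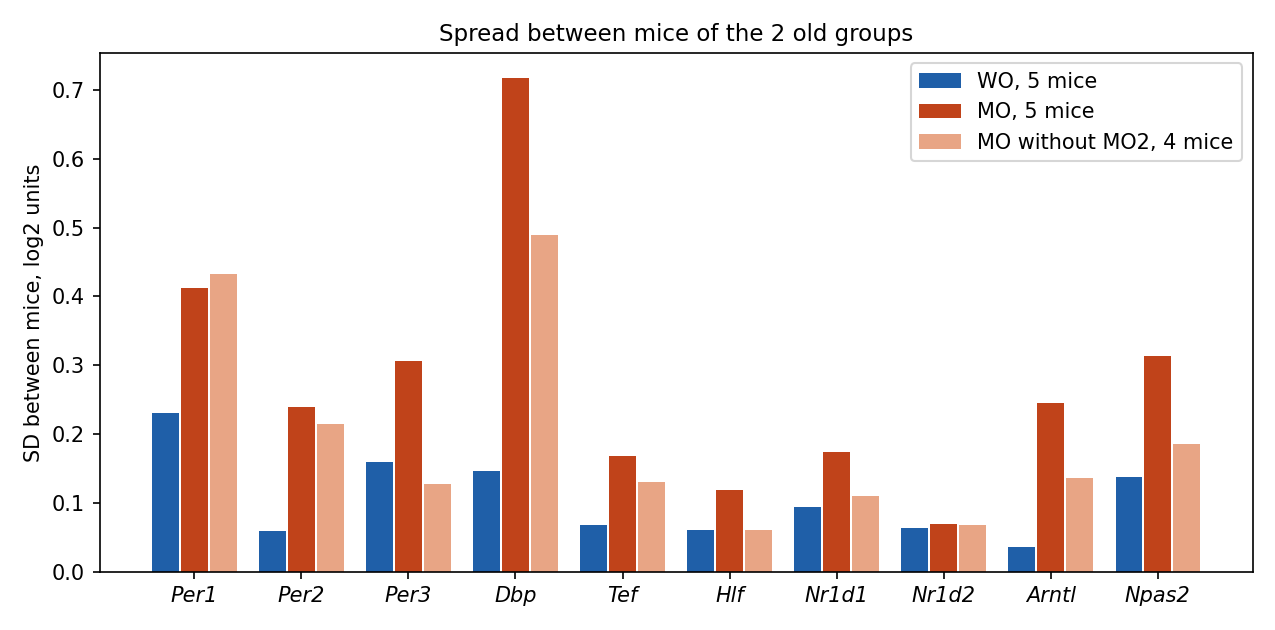
SD between mice (y axis, log2 units) of each clock gene in WO mice (blue), MO mice (red) and MO mice without MO2 (light red). The red bar is above the blue bar for all 10 genes, by most for Dbp (0.718 against 0.146).

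The MO mice departed from their mean in a pattern. MO2, 190 days old, was the lowest of all 16 mice in Per2, Per3, Dbp, Tef, Hlf and Nr1d1 and the highest in Arntl and Npas2. It thus held an extreme in 8 of 10 members, against 22.1% of the 13530 genes. MO3, 245 days old, was the mirror image for 4: the highest in Dbp and Per2 and the lowest in Arntl and Npas2, against an extreme in 14.5% of those genes. Arntl minus Dbp, on the log2 scale, was 0.31 in MO2 and -2.15 in MO3. It was -0.81, -1.75 and -1.18 in MO1, MO4 and MO5. In the other 11 mice it lay between -1.56 and -0.85, so the 5 MO mice ran beyond that range on both sides. Both mice were in batch 1. MO3 had the highest microglial marker level of the 16 (4.55) and MO2 the next (4.19), and the part of these in the pattern was not tested.

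**Figure D4:**
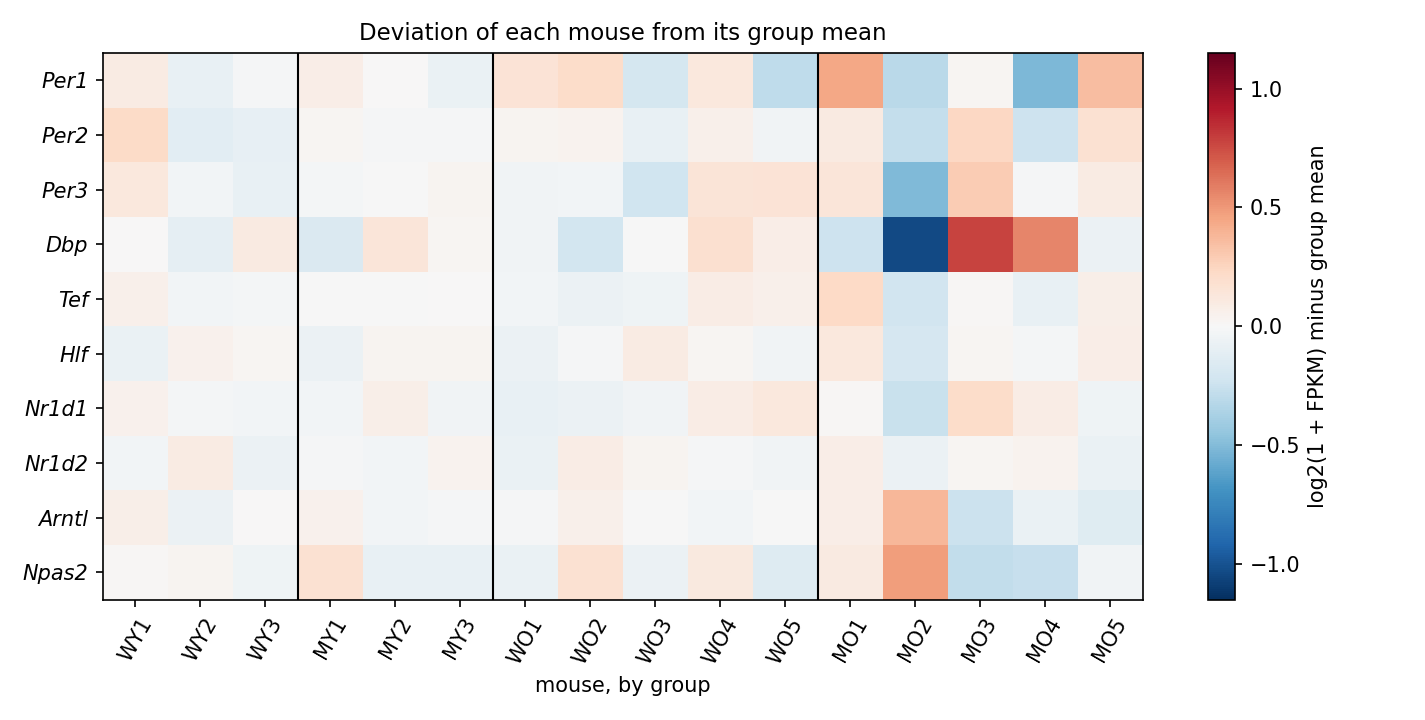
Deviation of each mouse from its group mean (colour, log2 units) for each clock gene (rows) and mouse (columns, split by group). MO2 is blue in the Per, PAR bZIP and REV-ERB rows and red in the Arntl and Npas2 rows, and MO3 shows the opposite colours in Dbp, Arntl and Npas2.

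Whether Arntl moved against the others within groups was tested over the 16 mice, on values minus their group means, with an exact permutation of mice within groups (two-sided). Over 9 pairs, Pearson's r with Arntl was 0.849 for Npas2 (p = 0.00602, adjusted 0.0542 over the pairs) and -0.880 for Dbp (exact permutation p = 0.0146, adjusted 0.0657). Spearman's rho was 0.629 (p = 0.0317, adjusted 0.269) and -0.632 (p = 0.0597, adjusted 0.269) by the same exact permutation. For Nr1d1 r was -0.743 (exact permutation p = 0.0406, adjusted 0.122) and for Per3 -0.745 (exact permutation p = 0.0585, adjusted 0.132). The other r values were -0.621 for Hlf, -0.486 for Per2, -0.401 for Tef, -0.172 for Nr1d2 and -0.160 for Per1. None of the 9 passed an adjusted p of 0.05. Without MO5, Dbp (r = -0.944) and Npas2 (r = 0.873) both passed (exact permutation, adjusted p = 0.0266 for each). Both also passed without MO4 or WY2, and Npas2 alone without WO4 or WY3. In the 12 mice of batch 1, r was 0.922 for Npas2 (exact permutation p = 0.0108, adjusted 0.0972) and -0.958 for Dbp (exact permutation p = 0.0617); batch 2 held 2 mice a group, too few for a value. Left without MO2 and MO3, the 2 mice farthest from the median of Arntl, r was 0.508 for Npas2, -0.420 for Dbp, -0.0151 for Nr1d1 and 0.143 for Per3. For each of these genes and Hlf, r was nearer 0 without MO2 alone than without MO3 alone. Without MO2 it was 0.610 for Npas2, -0.663 for Dbp, -0.382 for Nr1d1, -0.198 for Per3 and -0.011 for Hlf. Without MO3 it was 0.810, -0.826, -0.628, -0.662 and -0.688 in the same order. Each of these thus kept its sign without MO2, with an r nearer 0 than over all 16 mice. Among the 9 pairs the lowest adjusted p without MO2 was 0.473 (Npas2, exact permutation). In the 11 mice that were not MO, r was 0.460 for Npas2, -0.463 for Dbp and -0.600 for Hlf. For Nr1d1 it was -0.170, for Per3 0.0374 and for Per2 0.610.

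Per1 stood outside that pattern, and its own partners were looked for after its values were seen. Genes known to respond to glucocorticoids (12) and immediate early genes (11) were set against it in the same way, 23 pairs in all. All 12 glucocorticoid-responsive genes correlated positively with Per1 within groups, with a median r of 0.723, against -0.0398 over 13529 genes. Among them 6 passed an adjusted p of 0.05 by exact permutation: Errfi1 (r = 0.824), Cdkn1a (0.798), Nfkbia (0.791), Sgk1 (0.771), Plin4 (0.741) and Zbtb16 (0.723). Errfi1 codes for an inhibitor of EGF receptor signalling, Cdkn1a for a cell cycle inhibitor, Nfkbia for the inhibitor of NF-kappaB, and Sgk1 for a kinase induced by corticosteroids. Egr1 (0.779) and Nr4a1 (0.735) passed among the immediate early genes, whose median r was 0.399. By Spearman's rho, 3 of the 8 also passed, among them Sgk1 (rho = 0.794, exact permutation p = 0.000723, adjusted 0.0166).

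Sgk1 showed the same order of MO mice at both ends. It was 7.69, 6.61, 6.63, 5.52 and 7.63 in MO1 to MO5, where Per1 was 4.26, 3.50, 3.84, 3.30 and 4.17. Fkbp5, a co-chaperone of the glucocorticoid receptor, was 5.40, 4.26, 3.79, 3.42 and 4.11 in those mice (r = 0.679 over 16 mice, exact permutation p = 0.06, adjusted 0.106). MO1 was highest and MO4 lowest in all of them. Blood markers (4 of 5 found, 2 of them near 0) ran the other way. Their plain mean was 1.07 in MO1, 1.69 in MO5, 1.84 in MO3, 1.86 in MO2 and 1.89 in MO4. Hba-a1 was lower in MO1 than in every other mouse, where it was at least 5.42. Oligodendrocyte markers were also lowest in MO1 (4.25) and highest among MO mice in MO4 (4.82), and the part of either in the Per1 values was not tested. In the 11 mice that were not MO the 12 genes had a median r of 0.623 with Per1, again with 12 of 12 positive, but 0 of the 23 pairs passed. Without MO1 and MO4, the 2 farthest from the median of Per1, the median was 0.575, with 12 of 12 positive and 0 of 23 passing. In batch 1 the median was 0.697 with 12 of 12 positive, and 3 of 23 passed, all of them immediate early genes. In these settings the sign was the same for all 12 genes, and the calls were not. Without MO5, 6 of 23 passed, and 0 of 23 passed when MO1, MO4, MY1, WY1 or WY2 alone was left out.

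**Figure D5:**
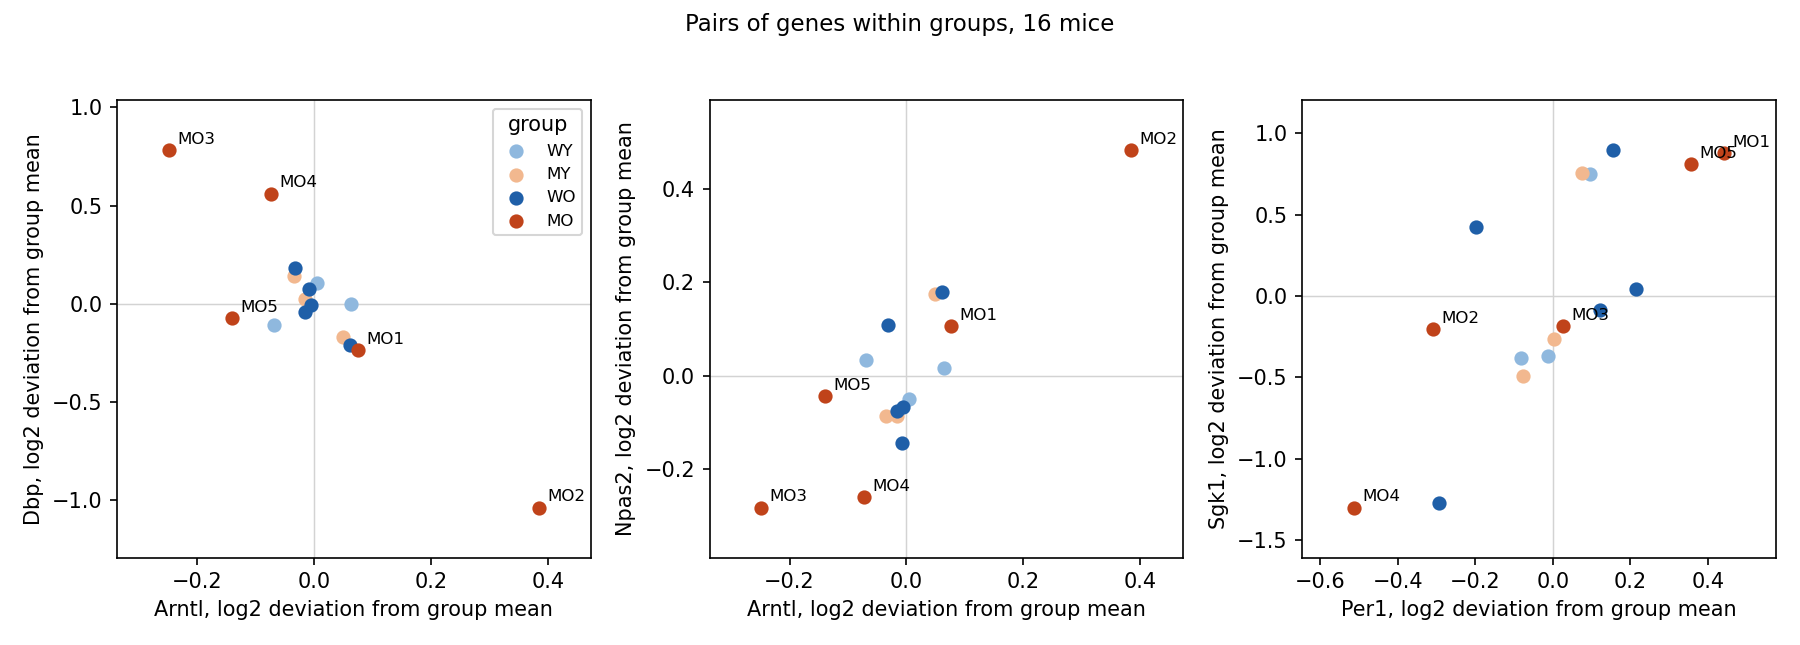
Deviation from the group mean (log2 units) of Dbp, Npas2 and Sgk1 (y axes) against Arntl, Arntl and Per1 (x axes), 1 point a mouse, coloured by group, with MO mice named. MO2 and MO3 sit at opposite corners of the Arntl panels (r = -0.880 and 0.849), and in the Per1 panel MO1 and MO5 sit opposite MO4 (r = 0.771).

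The genes outside the 10 most like a member were ranked by r of group-centred values over 16 mice, among genes with a mean of at least 1. For Dbp they were Abcb8 (0.866), Ccdc159 (0.856), Alg3 (0.824), Olfr1344 (0.822) and Sphk2 (0.816), where the median absolute r was 0.212. For Arntl they were Mat2b (0.870), Pcnp (0.854), Sat1 (0.854), Ccz1 (0.850) and Slc38a2 (0.839), with a median absolute r of 0.232. The likeness fell for most once the MO mice were left out: in 11 mice Ccdc159 stayed at 0.758 with Dbp and Pcnp at 0.774 with Arntl, while Olfr1344 went to -0.177 and Slc38a2 to 0.0580. Sphk2 is the gene that shares bases with Dbp. All points share their libraries, and these values are a description.

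Of the partners of the members, Clock, the usual partner of ARNTL, did not pass in any comparison and differed by -0.01 ± 0.060 between MO and WO (limma adjusted p = 0.924). Cry1, a repressor that acts with the PER proteins, was 2.92, 3.15, 2.80, 2.71 and 2.73 in MO mice, 2.66, 2.52 and 2.60 in MY mice and 2.58, 2.67, 2.57, 2.81 and 2.65 in WO mice. All MO mice were above all MY mice, and MO2 was the highest. The difference was 0.27 ± 0.10 against MY and 0.21 ± 0.085 against WO (limma adjusted p = 0.0807 and 0.0938). Within batches the difference from WO was 0.35 in batch 1 and -0.0097 in batch 2. Cry2 was 0.23 ± 0.053 higher in WO than in WY, with no overlap (9.67% of all genes), and did not pass either (limma adjusted p = 0.0994).

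Other genes of the loop did pass. Of 33 further clock genes, 7 were higher and 4 lower in MO than in MY, where 13.1% and 12.5% of all genes were. In MO against WO it was 8 higher and 2 lower, beside 15% and 12.9%. Among the loop's own factors Bhlhe41, an E-box repressor, rose by 0.34 ± 0.080 and 0.25 ± 0.073 (limma adjusted p = 0.0152 and 0.0294). Rorb, an activator at the RORE, rose by 0.18 ± 0.050 and 0.26 ± 0.041 (limma adjusted p = 0.0331 and 0.00102), and Timeless rose by 0.22 and 0.17. Nfil3, the repressor at the D-box, passed against WO only, by 0.35 ± 0.085 (limma adjusted p = 0.0111). Its mean was 2.69 in MO, 2.34 in WO and 2.39 in MY, and the difference between comparisons was not tested. With quantile normalization, Rorb over MY fell to 0.08 and Timeless to 0.09 and 0.07, none of which passed.

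Among regulators of clock proteins, Btrc, a subunit of the ligase that degrades PER, was lower by -0.16 and -0.18, and Gsk3b (-0.20) and Kdm5a (-0.19) passed against MY. Nono passed against WO (0.20). Of clock-controlled output genes, Wee1, a G2 checkpoint kinase and E-box target, fell by 0.25 ± 0.045 and 0.29 ± 0.038. Tspan4 was 1.26 ± 0.19 and 1.16 ± 0.16 higher and was the only one of the 33 past the fold threshold in these 2 comparisons. Lonrf3 (0.35 and 0.31), Cirbp against MY (0.49), a cold-inducible RNA-binding protein, and Nampt against WO (0.29), the enzyme that salvages NAD, passed too. Mean Cirbp was 5.64 in WY, 5.11 in MY, 5.29 in WO and 5.60 in MO, so MO stood close to WY and MY was lowest. Between the young groups limma called 0 of 33 (0.0055% of all genes), with 3 below an unadjusted P of 0.05 (7.16% of all genes).

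Of the 12 glucocorticoid-responsive genes, 2 passed in MO against MY and in MO against WO, beside 25.6% and 27.9% of all genes. They were the metallothioneins Mt1 and Mt2 (1.66 ± 0.17 and 1.37 ± 0.11 against MY, 1.48 ± 0.17 and 1.44 ± 0.17 against WO), and the other 10 did not pass. Those 2 had the lowest r with Per1 within groups of the 12 (0.390 and 0.373). Of the 11 immediate early genes, 3 (Egr2, Junb and Ier2) rose and 1 (Arc) fell in both (Arc by 0.52 ± 0.072 and 0.41 ± 0.084). In these comparisons 13.1% and 15% of all genes passed as higher, and 12.5% and 12.9% as lower.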

How the data were processed

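Spinal cord RNA of 16 mice was sequenced, with 1 library a mouse, and grouped by the sample labels. The log2 values were made by the authors: Trimmomatic trimmed the reads, TopHat placed them on mm10, Cufflinks gave FPKM per gene, 1 was added before log2, and ComBat adjusted for library batch. Tool versions are not given in the sources used here. The deposited values were used as they are. 915 of them were below 0, and the columns left unused numbered 0. Depth behind a gene is unknown, so precision rests on the spread between mice.

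Groups were compared in limma 3.58.1 (R 4.3.3), 2 groups a fit and 4 groups for the interaction, two-sided, with Benjamini-Hochberg adjustment over 18167 genes. Calls needed an FDR of at most 0.05, alone or with a fold change of 1.5. Correlations used exact permutation within groups (SciPy 1.17.1). Alternatives were batch 1 only, batch as a term, a mean of at least 1, quantile normalization, an intensity trend, a replicate block, 1 fit of all groups, log2(FPKM + 0.1), and each mouse left out. The method was tested on simulated data.

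Named were all 10 members, Clock, Cry1 and Cry2, listed clock genes that passed (at most the 6 lowest P a list), the 2 lowest P of the other lists, and the 5 genes most like Dbp and Arntl. Some listed genes are counted but not reported here by name. Ier2 and the partners of Per1 were named after their values were seen. Members and lists were chosen with earlier results of these data known. Labels do not say whether mice shared litters, so p-values measure the spread between these mice.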

Additional observations from a re-analysis of the deposited data

Results flagged for a closer look

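In WO2, Arntl stood at 2.93, apart from the other 4 WO mice. This was 1 of 26 gene and group sets tested, and about 1 in 20 would be picked out by chance.

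The change with age differed between the genotypes, by the interaction test in limma, for 8 of the 33 clock genes outside the 10, beside 17.7% of all genes. Old minus young in mutant mice, less the same in wild-type profilin mice, was 0.24 for Rorb (adjusted p = 0.02), 0.30 for Timeless (adjusted p = 0.0184), 1.18 for Tspan4 (adjusted p = 0.00449) and 0.83 for Cirbp (adjusted p = 0.0099). For Nampt it was 0.33 (adjusted p = 0.0119), for Lonrf3 0.43 (adjusted p = 0.0276) and for Nono 0.17 (adjusted p = 0.0487). For Wee1 it was -0.33 (adjusted p = 0.0139). In wild-type profilin mice, young to old, the mean of Nono went from 5.77 to 5.64 and that of Nampt from 4.12 to 3.90. These falls were the larger part of their values here. The mean of Cirbp went from 5.64 to 5.29 in wild-type profilin mice and from 5.11 to 5.60 in mutant mice.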

How the results depend on the processing

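Counts of members called moved from 0 to 1 in MO against MY with the replicate block (Per1, 0.58, limma adjusted p = 0.0462), and in MO against WO with quantile normalization (Per3, -0.40, adjusted p = 0.0458) and with all 4 groups in 1 fit (Per3, -0.37, adjusted p = 0.0322). Leaving out 1 mouse gave 0 to 1 in both and in the interaction, 0 to 2 Arntl pairs past an adjusted p of 0.05, 8 to 10 members wider in MO, and 0 to 8 Per1 pairs. Per1 pairs numbered 3 in batch 1 and 0 without the 5 MO mice or the 2 farthest, settings added after seeing the data, as were the alternatives for the SDs. Replicate numbers were not taken to pair the mice. In MO against MY, same-numbered deviations correlated at 0.085 to 0.177 and others at -0.149 to 0.0685, and each of the 3 fitted its own number best. In MO against WO, same-numbered ones correlated at -0.207 to 0.0913, with 1 of 5 best. In WO against WY it was -0.129 to 0.377 with 2 of 3 best, and in MY against WY -0.200 to -0.0194 with 0 of 3. Whether the mice were paired is not settled by these values.

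Directions turned in these values. In MO against MY, Dbp ran from -0.40 to 0.057 over mice left out, and Arntl from -0.12 to 0.040, and was 0.049 with batch 1 only, the block or batch as a term. Per2 ran from -0.059 to 0.068 (0.022 in those 3 settings), and Npas2 from -0.0091 to 0.20. In MO against WO, Dbp ran from -0.19 to 0.27 and was -0.070 in batch 1, -0.0054 with quantile normalization and -0.0018 with log2(FPKM + 0.1). Arntl ran from -0.080 to 0.078 (-0.023 with quantile normalization), Npas2 from -0.087 to 0.10 (-0.055), Clock from -0.042 to 0.027 and Cry2 from -0.082 to 0.052 (0.14 in batch 1). The r of Arntl, below 0 over all mice with each of these genes, was 0.332 with Per1, 0.300 with Per2, 0.143 with Per3, 0.406 with Tef and 0.322 with Nr1d2 without the 2 farthest mice, and 0.409, 0.610 and 0.0374 with Per1, Per2 and Per3 without MO mice. Over mice left out it ran from -0.323 to 0.294 with Per1, -0.716 to 0.424 with Tef and -0.334 to 0.214 with Nr1d2, each highest without MO2. Causes were not tested. Of the other values of 1 gene or pair, 1289 kept direction and call and 19 gained it. The call was lost in 149, among them Timeless, Btrc and Rorb.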
